A study of Mus musculus with 8 samples.

Results

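The genes described here are 39 markers of the excitatory projection neurons of the mouse cerebral cortex. They were chosen by name for the layer they mark, with earlier results of these data known. They comprise 10 genes of layer 2/3, 3 of layer 4, 8 of layer 5, 10 of layer 6, 4 of the subplate and layer 6b, and 4 general excitatory neuron genes. Of these, 36 had a transcript paired with their symbol in the deposited tables, and all 36 were among the 10588 genes tested. Pcp4 (layer 5), Hs3st4 (layer 6) and Nxph4 (layer 6b) had no transcript under these symbols and were not analysed here.

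Poly(A)+ RNA from the right cortex of 8 C57BL/6 mice was sequenced, 4 bigenic and 4 nontransgenic, with 3 males in each group. Bigenic mice carried Camk2a-tTA and tetO-ΔNLS-hTDP-43, so that a Camk2a promoter, which is active mainly in forebrain excitatory neurons, drove a human TDP-43 lacking a working nuclear localization signal. Nontransgenic mice, from matings of the same kind, carried neither transgene. All mice were fed doxycycline, which keeps the transgene off, up to 28 days of age, and tissue was collected after 10 further days without it. Mice are named by the number heading their column (bg for bigenic, nt for nontransgenic). Values for bigenic mice are always given in the order bg254, bg277, bg283 and bg286, and those for nontransgenic mice in the order nt242, nt250, nt255 and nt278.

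Projection neurons of the neocortex are glutamatergic cells arranged in layers by birth date and target. Layer 2/3 neurons mostly connect cortical areas, layer 4 neurons receive thalamic input, many layer 5 neurons project to the brainstem and spinal cord, and many layer 6 neurons project to the thalamus. Each class is set up by transcription factors that repress the programs of other classes, and mature neurons keep part of this code together with receptors, adaptors and release proteins by which the layers are recognised.

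Bigenic and nontransgenic mice were compared by the normalized count, which is the number of reads on a gene after the scaling applied before deposit. About 10.6 M to 31.9 M reads per mouse lay on genes, lowest in bg277, and 3 reads were worth 1.94 to 6.20 normalized counts. The lowest value of any member in any mouse was 72, so no member was near this floor. On the first principal component the bigenic mice scored -46.0 to -12.8 and the nontransgenic mice 14.0 to 26.5. Mouse bg277 had the lowest score there (-46.0). On the second component it scored -22.3, against 15.0 to 15.9 in the other bigenic mice, and nt278 had the lowest nontransgenic score (-16.4).

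Of the 36 members, 14 passed an adjusted p-value of 0.05 (limma, Benjamini-Hochberg over all 10588 genes), which is 38.9% of the members beside 35.9% of all genes tested. Of the members, 3 were higher in bigenic mice (8.33%, beside 20.5% of all genes) and 11 were lower (30.6%, beside 15.4% of all genes). The median log2(fold change) over the members was -0.19, beside 0.03 over all genes, and 25 of 36 members (69.4%) had a fold change below 0, beside 46.7% of all genes. The groups did not overlap in 14 members (38.9%), beside 39% of all genes. In whole cortex, fewer cells of a type and less RNA per cell cannot be told apart, and this holds for every value below. Counts per layer below rest on 3 to 10 members each and are read beside the same shares of all genes. All log2(fold changes) are bigenic over nontransgenic on the log2(normalized count + 1) scale.

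**Figure D1:**
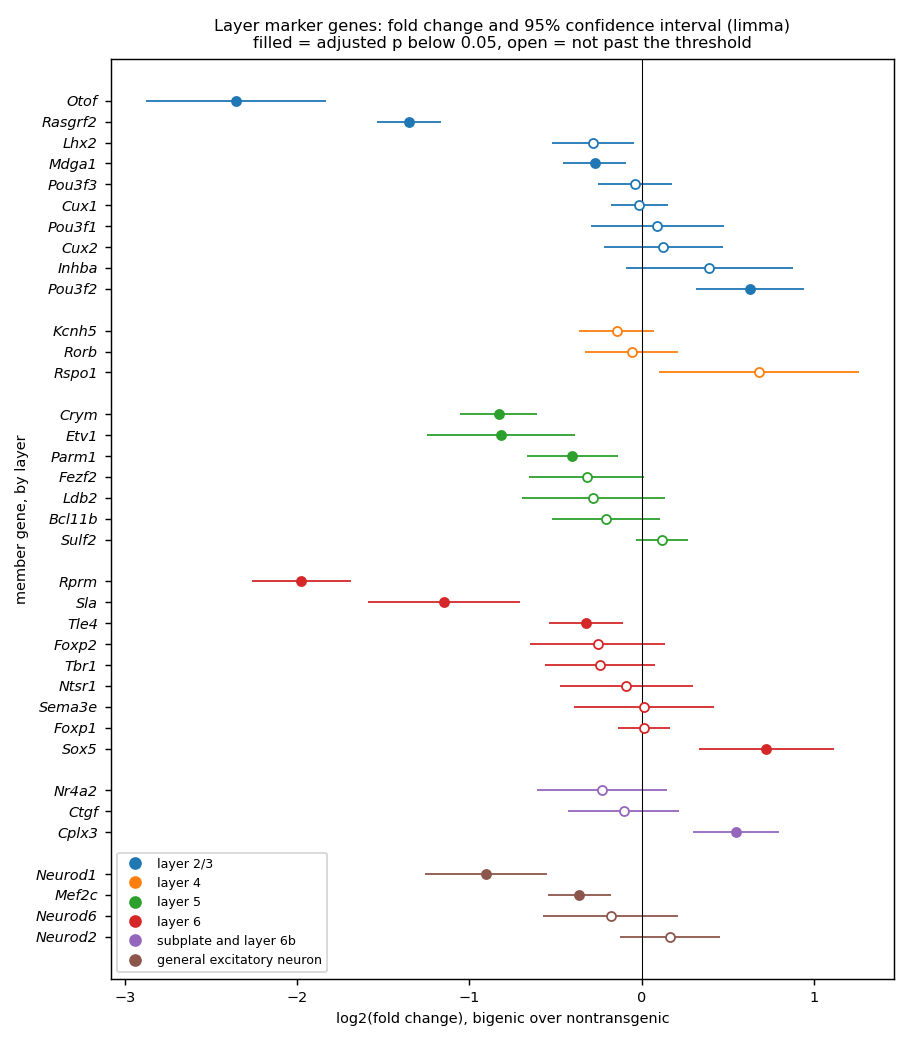
Log2(fold change), bigenic over nontransgenic, with its 95% confidence interval from limma for the 36 members, grouped and coloured by layer. Filled points passed an adjusted p-value of 0.05; the values run from -2.35 (Otof) to 0.72 (Sox5), and the layer 4 group has no filled point.

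Among the 10 layer 2/3 members, 3 fell and 1 rose, beside 15.4% and 20.5% of all genes, and 6 did not pass the test. The median log2(fold change) was -0.03. The member with the lowest fold change was Otof (uc008wvk.1, mm9 chromosome 5, 30669351 to 30764305), which encodes otoferlin, a calcium sensor of vesicle release. Its normalized counts were 214, 184, 99 and 146 in bigenic and 784, 799, 613 and 1035 in nontransgenic mice. Every bigenic mouse lay far below every nontransgenic mouse. The bigenic mean was 161 ± 49.7 (SD, n = 4) and the nontransgenic mean 808 ± 173 (SD, n = 4), a log2(fold change) of -2.35 (standard error, SE, 0.23, limma adjusted p-value = 0.000100), which left 19.9% of the nontransgenic level.

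Rasgrf2 (uc007rke.2, chromosome 13, 92020005 to 92901611), an exchange factor that activates Ras and Rac in response to calcium, fell with little spread in either group. It had 2194, 2163, 2515 and 2538 normalized counts in bigenic and 6191, 5539, 5931 and 6344 in nontransgenic mice, with no overlap. The log2(fold change) was -1.35 (SE 0.08, adjusted p-value = 1.28e-05), or 39.2% of the nontransgenic mean. Per kilobase of exon, Rasgrf2 was the most abundant layer 2/3 member in nontransgenic mice (681 normalized counts per kilobase). In the bigenic mice Pou3f3 (552) and Lhx2 (374) were above it (267).

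Pou3f2, a POU-domain transcription factor of upper-layer neurons also known as Brn2, went the other way (uc008sdq.1, chromosome 4, 22413791 to 22415480). Its values were 231, 306, 307 and 345 in bigenic and 192, 187, 169 and 213 in nontransgenic mice. The groups did not overlap, although bg254 was only slightly above nt278, and the log2(fold change) was 0.63 (SE 0.14, adjusted p-value = 0.00714). Mdga1, a membrane-anchored immunoglobulin-domain protein that binds neuroligins, fell by a smaller step (uc008bto.1, chromosome 17, 29964901 to 30107032). It was at 448 ± 35.1 (SD, n = 4) against 541 ± 13.5 (SD, n = 4), without overlap, with a log2(fold change) of -0.27 (adjusted p-value = 0.0271). Leaving out single mice raised its adjusted p-value to as much as 0.0687.

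The other layer 2/3 members did not pass the test. For Cux1 and Cux2, the cut-homeodomain factors by which upper layers are usually defined, the log2(fold changes) were -0.01 (95% confidence interval -0.18 to 0.15) and 0.13 (-0.22 to 0.47). Cux1 spanned 834 to 888 normalized counts in the bigenic and 840 to 958 in nontransgenic mice. For the POU factors Pou3f1 and Pou3f3 the values were 0.09 (-0.30 to 0.48) and -0.04 (-0.26 to 0.17). Without bg277, Cux2 (-0.0251) and Pou3f1 (-0.0276) were below 0 and Pou3f3 was at -0.13. The LIM-homeodomain factor Lhx2 had 989 to 1332 against 1355 to 1541 normalized counts, which do not overlap, and its log2(fold change) of -0.28 had an adjusted p-value of 0.0616. It passed without bg286 (-0.35, adjusted p-value = 0.0362) and with quantile normalization (adjusted p-value = 0.0302), while leaving out any other single mouse gave 0.0542 to 0.164. Inhba, the subunit that forms activin A, had 219, 490, 274 and 253 against 221, 235, 234 and 205. Its log2(fold change) was 0.39 (-0.09 to 0.88) with bg277 and 0.15 without it.

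**Figure D2:**
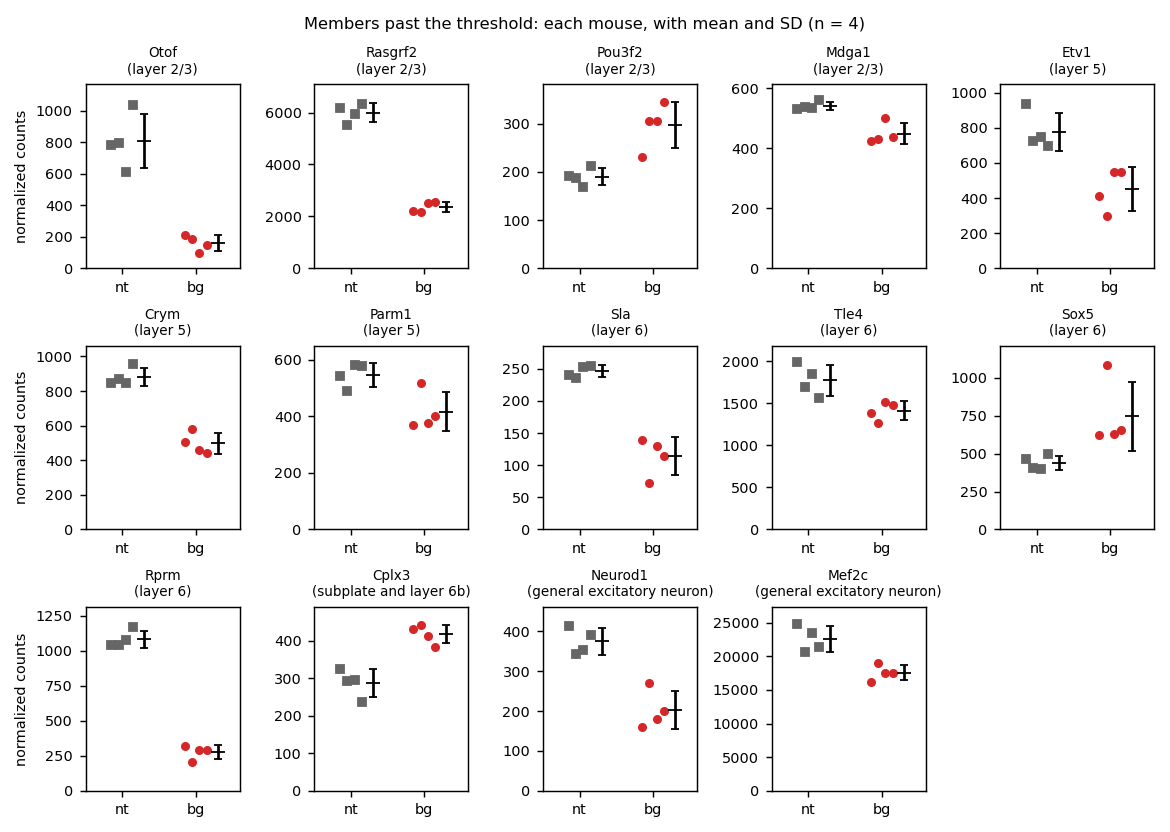
Normalized counts of the 14 members past the threshold in each mouse, nontransgenic (nt, squares) and bigenic (bg, circles), with the group mean and SD (n = 4) beside the points and every axis starting at 0. The groups overlap only in Parm1, where bg277 (517) is above nt250 (489).

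None of the 3 layer 4 members passed the limma test with all mice. Rorb, the nuclear receptor that marks layer 4, had 287, 393, 362 and 377 normalized counts in bigenic and 395, 396, 358 and 323 in nontransgenic mice, a log2(fold change) of -0.06 (-0.33 to 0.21). The potassium channel gene Kcnh5 was at -0.14 (-0.36 to 0.07). Rspo1, a secreted enhancer of Wnt signalling, had 272, 792, 458 and 435 against 261, 282, 278 and 315. All bigenic mice but bg254 were above every nontransgenic mouse, and bg254 was within their range. The log2(fold change) was 0.68 (0.10 to 1.26) with an adjusted p-value of 0.0642. This call depended on single mice, since the adjusted p-value was 0.00924 without bg254 (log2(fold change) 0.93) and 0.0581 without bg277 (0.42).

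In layer 5, 3 of the 7 members tested fell and none rose, beside 15.4% and 20.5% of all genes. The median log2(fold change) was -0.32. Crym, a thyroid hormone-binding protein (uc009jmk.1, chromosome 7, 127329894 to 127345625), had 504, 583, 462 and 441 normalized counts in bigenic and 848, 871, 848 and 957 in nontransgenic mice. The groups were well separated, with a log2(fold change) of -0.83 (SE 0.10, adjusted p-value = 0.000303) and 56.5% of the nontransgenic mean remaining. Etv1, an ETS transcription factor of layer 5 (uc007nkp.2, chromosome 12, 39505967 to 39594802), had 410, 296, 550 and 551 against 938, 727, 750 and 696. No bigenic mouse reached the lowest nontransgenic mouse, and bg277 was the lowest of all. Its log2(fold change) was -0.82 (SE 0.19, adjusted p-value = 0.00932) and was -0.63 without bg277.

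Parm1, which encodes a mucin-like membrane protein (uc008ybw.1, chromosome 5, 91946641 to 92055920), had 371, 517, 377 and 401 normalized counts against 542, 489, 580 and 577. The bigenic mouse bg277 was above nt250, so the groups overlapped. The log2(fold change) was -0.40 (SE 0.12, adjusted p-value = 0.0253), and leaving out single mice raised the adjusted p-value to as much as 0.0753.

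The factors that specify subcerebral neurons did not pass the test. Fezf2, the zinc-finger gene at the head of this program, had 196, 261, 266 and 301 normalized counts in bigenic and 357, 265, 309 and 341 in nontransgenic mice, a log2(fold change) of -0.32 (-0.65 to 0.01, adjusted p-value = 0.121). Bcl11b, also known as Ctip2 and expressed in striatal neurons as well, had 1881, 1241, 1412 and 1289 against 1662, 1685, 1409 and 1913. Its log2(fold change) was -0.21 (-0.52 to 0.11, adjusted p-value = 0.274) with all mice and -0.34 (adjusted p-value = 0.0464) without bg254. It was -0.14 without bg277 (adjusted p-value = 0.417) and -0.14 without nt278 (adjusted p-value = 0.499). The LIM-domain cofactor Ldb2 was at -0.28 (-0.70 to 0.14), at -0.14 without bg277 and at -0.05 with array weights, which give bg277 the least weight. Sulf2, an extracellular sulfatase acting on heparan sulfate, was at 0.12 (-0.03 to 0.27).

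Layer 6 held 3 members that fell and 1 that rose among the 9 tested, beside 15.4% and 20.5% of all genes. The median log2(fold change) was -0.24. Rprm, which encodes Reprimo, a p53-induced protein linked to cell cycle arrest and a marker of layer 6 (uc008jrp.1, chromosome 2, 53936504 to 53937963), had 319, 207, 289 and 294 normalized counts in the bigenic mice. It had 1040, 1038, 1076 and 1167 in nontransgenic mice, each more than 3-fold above the highest bigenic mouse. The log2(fold change) was -1.98 (SE 0.13, adjusted p-value = 1.95e-05), which left 25.7% of the nontransgenic mean. Per kilobase of exon, Rprm was the second most abundant of all members in nontransgenic mice (740 normalized counts per kilobase, after Mef2c).

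Sla, the Src-like adaptor (uc007was.1, chromosome 15, 66612381 to 66663391), fell from a low level. It had 139, 72, 130 and 115 normalized counts against 241, 236, 253 and 255, with no overlap and with the lowest value in bg277. It was the one member kept for testing through the nontransgenic mice alone, since no bigenic mouse reached the minimum of 10 RPM. Its log2(fold change) was -1.15 (SE 0.20, adjusted p-value = 0.00198). The corepressor Tle4, which marks corticothalamic neurons (uc008gwk.1, chromosome 19, 14522562 to 14672473), had 1413 ± 110 normalized counts (SD, n = 4) against 1771 ± 185 (SD, n = 4). Its log2(fold change) was -0.32 (adjusted p-value = 0.0256), and leaving out single mice raised the adjusted p-value to as much as 0.0791.

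Sox5, a SOX factor that controls the sequence in which deep-layer neurons are made, rose (uc009eqk.2, chromosome 6, 143776945 to 144730497). It had 621, 1088, 628 and 654 normalized counts in bigenic and 465, 407, 398 and 495 in nontransgenic mice. Every bigenic mouse was above every nontransgenic mouse, and bg277 stood well above the other bigenic mice. The log2(fold change) was 0.72 (SE 0.18, adjusted p-value = 0.0106), and without bg277 it was 0.53 (adjusted p-value = 0.000864). Of the exon bases of Sox5, 9.25% overlap 4933415D12Rik on the opposite strand, and reads from this stretch could belong to either gene.

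The remaining layer 6 members did not pass the test. Foxp1, a forkhead factor, was at 2951 to 3122 normalized counts in the bigenic and 2855 to 3143 in nontransgenic mice, a log2(fold change) of 0.01 (-0.14 to 0.16). Foxp2, its relative in corticothalamic and striatal neurons, had 673, 343, 448 and 443 against 528, 616, 565 and 508. The mouse bg254 was the highest of all 8 and the other bigenic mice were below every nontransgenic mouse. The log2(fold change) of Foxp2 was -0.26 (-0.65 to 0.14, adjusted p-value = 0.281) with all mice and -0.44 (adjusted p-value = 0.0265) without bg254. Without bg277 it was -0.11 (adjusted p-value = 0.537). Tbr1, the T-box factor of corticothalamic identity, had 2008, 1917, 2921 and 2840 against 2979, 2755, 2938 and 2598, a log2(fold change) of -0.24 (-0.56 to 0.08), and -0.14 without bg277. In Tbr1, bg254 and bg277 were below every nontransgenic mouse and the other bigenic mice were within their range. The neurotensin receptor gene Ntsr1 (-0.09, -0.47 to 0.30) and the semaphorin gene Sema3e (0.01, -0.39 to 0.42) had wide intervals around 0.

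**Figure D3:**
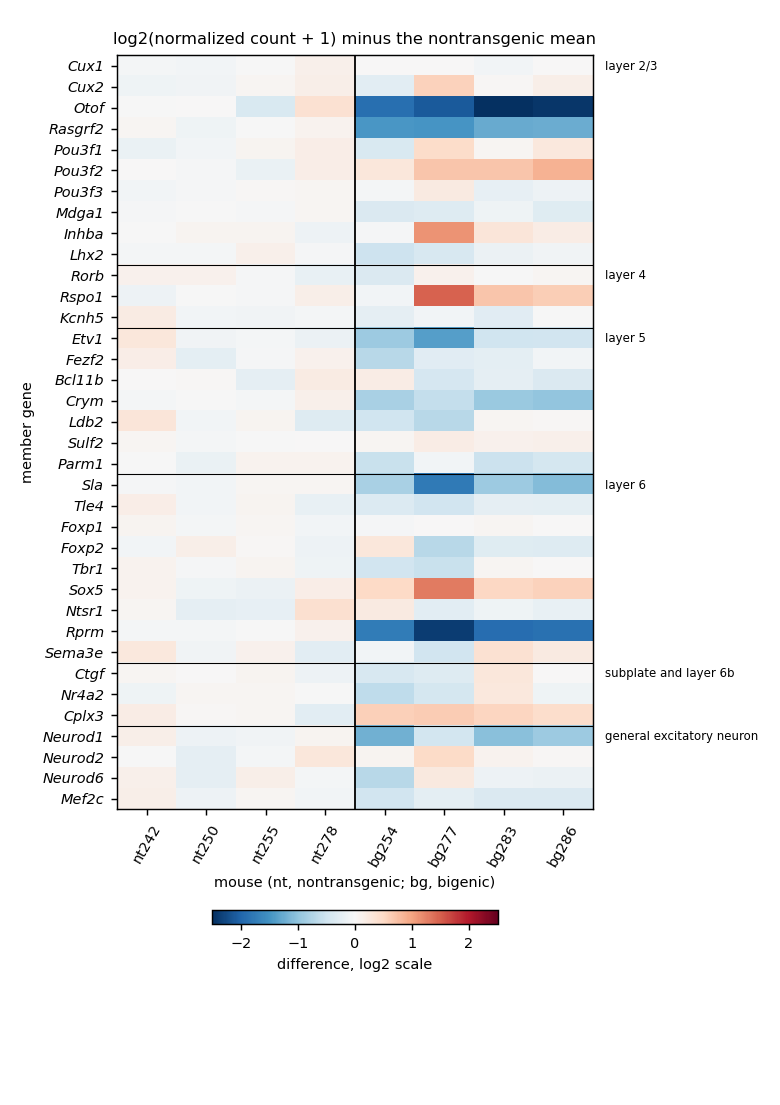
Difference of log2(normalized count + 1) from the nontransgenic mean for each member (vertical axis, by layer) in each mouse (horizontal axis), with blue for lower and red for higher. Otof, Rasgrf2 and Rprm are blue in all 4 bigenic mice, while Inhba and Rspo1 are darkest red in bg277.

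Of the 3 subplate and layer 6b members tested, 1 rose. Cplx3, a complexin that binds the SNARE complex at the synapse (uc009pvg.2, chromosome 9, 57447826 to 57454088), had 432, 441, 413 and 384 normalized counts in bigenic and 323, 292, 295 and 236 in nontransgenic mice. The groups did not overlap and the log2(fold change) was 0.55 (SE 0.11, adjusted p-value = 0.00461). The matricellular protein gene Ctgf, at 449, 476, 727 and 597 against 618, 595, 622 and 543, had a log2(fold change) of -0.11 (-0.43 to 0.22). Its exons share 22.9% of their bases with Gm15270 on the opposite strand. Nr4a2, an orphan nuclear receptor also known as Nurr1, had 496, 567, 926 and 715 against 720, 803, 798 and 768. Its log2(fold change) was -0.23 (-0.61 to 0.14, adjusted p-value = 0.306) with all mice and -0.40 (adjusted p-value = 0.0390) without bg283. Without bg254 it was -0.10 (adjusted p-value = 0.645). For both Ctgf and Nr4a2 the bigenic mouse bg283 was the highest of all 8 mice.

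Of the 4 general excitatory neuron members, 2 fell. Neurod1, a basic helix-loop-helix factor of neuronal differentiation (uc008kgt.1, chromosome 2, 79292678 to 79296908), had 161, 271, 181 and 200 normalized counts in bigenic and 414, 342, 352 and 392 in nontransgenic mice. The groups did not overlap, the log2(fold change) was -0.90 (SE 0.16, adjusted p-value = 0.00213), and 13.0% of its exon bases overlap other annotated genes. Mef2c, a MADS-box factor that couples activity to synapse number and the most abundant member per kilobase (3052 normalized counts per kilobase in nontransgenic mice), fell by less (uc007rik.2, chromosome 13, 83643033 to 83806684). It had 16149, 18925, 17563 and 17506 normalized counts against 24861, 20679, 23410 and 21351, without overlap, a log2(fold change) of -0.36 (SE 0.08, adjusted p-value = 0.00749).

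The relatives of Neurod1 did not pass the test. Neurod2 had 1437, 1909, 1447 and 1400 normalized counts against 1355, 1175, 1331 and 1662, a log2(fold change) of 0.16 (-0.13 to 0.45). Neurod6 had 924, 1762, 1355 and 1349 against 1633, 1266, 1655 and 1430, a log2(fold change) of -0.18 (-0.57 to 0.21). The bigenic spread of Neurod6 ran from below to above every nontransgenic mouse, with bg254 lowest and bg277 highest.

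The upstream sequence is shown for 4 members past the threshold, to place the largest falls with an entry (Rprm and Rasgrf2) beside the called members whose window holds the letters CAGCTG (Parm1, lower, and Cplx3, higher). Promoter windows of 250 bases before to 50 bases after the start site were taken from RefSeq (GRCm38.p6) and were matched for 29 members. The windows are chr2:54085503-54085802 (minus strand) for Rprm, chr13:92131779-92132078 (minus strand) for Rasgrf2, chr5:91517450-91517749 (plus strand) for Parm1 and chr9:57606232-57606531 (minus strand) for Cplx3. Each is printed 5′ to 3′ on the strand of the gene, and capitals mark CAGCTG, 1 form of the E-box. Other forms of the E-box were not searched, apart from CAGATG.
Rprm: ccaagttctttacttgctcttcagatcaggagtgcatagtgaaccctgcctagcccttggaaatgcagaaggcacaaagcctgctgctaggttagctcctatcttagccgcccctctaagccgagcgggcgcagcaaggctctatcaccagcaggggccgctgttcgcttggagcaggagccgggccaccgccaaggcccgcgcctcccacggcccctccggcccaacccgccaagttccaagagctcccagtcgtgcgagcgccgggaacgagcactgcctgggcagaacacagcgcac
Rasgrf2: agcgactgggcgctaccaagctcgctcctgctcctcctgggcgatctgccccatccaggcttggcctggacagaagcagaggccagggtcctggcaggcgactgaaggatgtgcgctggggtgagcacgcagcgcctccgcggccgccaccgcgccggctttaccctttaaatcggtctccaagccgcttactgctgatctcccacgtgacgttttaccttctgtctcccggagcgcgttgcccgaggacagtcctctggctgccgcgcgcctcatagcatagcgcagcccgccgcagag
Parm1: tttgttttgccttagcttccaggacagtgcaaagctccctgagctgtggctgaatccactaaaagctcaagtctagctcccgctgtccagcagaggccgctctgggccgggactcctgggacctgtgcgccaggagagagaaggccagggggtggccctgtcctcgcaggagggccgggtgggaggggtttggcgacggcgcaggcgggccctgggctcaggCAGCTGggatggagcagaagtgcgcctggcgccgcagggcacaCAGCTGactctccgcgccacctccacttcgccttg
Cplx3: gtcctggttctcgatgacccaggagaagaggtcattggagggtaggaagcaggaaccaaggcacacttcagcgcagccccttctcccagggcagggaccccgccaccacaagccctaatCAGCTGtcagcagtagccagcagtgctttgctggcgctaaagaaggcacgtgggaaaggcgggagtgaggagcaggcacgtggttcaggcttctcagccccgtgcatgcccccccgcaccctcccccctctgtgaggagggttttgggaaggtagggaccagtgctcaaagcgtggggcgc
On both strands, CAGCTG was found in 3 of the 29 member windows (Cplx3, Parm1 and Sulf2) and in 16.1% of all 27025 promoter windows. CAGATG, the E-box bound by NEUROD factors, was in 2 member windows (Kcnh5 and Neurod2) and in 17.2% of all windows. The MEF2 core TATTTATA was in 1 member window (Nr4a2) and in 1.77% of all windows. The POU octamer ATGCAAAT (1.75% of all windows) and the cAMP response element TGACGTCA (1.88%) were in no member window. The windows of the 8 members that fell and had an entry had a median GC content of 65.5%, those of the 3 that rose 62.7%, those of the 18 that did not pass the test 60.8%, and all windows 52.7%.

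Genes of the same layers that are not members were read from further lists. Like the members and the marker lists below, these were chosen with earlier results of these data known. Their counts are therefore not an independent check of the member results. Beside their counts, 15.4% of all genes tested were lower and 20.5% higher. Of 16 other layer 2/3 and 4 genes tested, 10 were lower and none higher, with a median log2(fold change) of -0.56. They include Wfs1, an endoplasmic reticulum protein (-1.41), and Calb1, a calcium buffer (-1.12), each with an adjusted p-value of 2.46e-05. Of 16 other layer 5 genes, 9 were lower, among them Crim1 (-0.89, adjusted p-value = 0.000219) and Vat1l (-0.81, adjusted p-value = 0.0013), and 1 was higher (the neurofilament gene Nefh, 0.42). Of 16 other layer 6 and 6b genes, 4 were lower, among them Mctp1 (-0.82) and Garnl3 (-0.70), and 2 were higher (Cdh18, 0.38, and Nfib, 0.32), with a median of -0.08. Of 15 other general excitatory genes, 8 were lower, with a median of -0.61, and 1 gene of this list is not reported here. Bhlhe22, a transcriptional repressor of area identity, was at -1.23 (adjusted p-value = 1.28e-05) and Slc17a6, a vesicular glutamate transporter, at -1.29. Slc17a7, the main cortical vesicular glutamate transporter, was at 0.15 (adjusted p-value = 0.327). Nefh, Cdh18, Nfib and Slc17a7 were named after their values were seen.

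Markers of other cells and regions also differed between the groups, and their counts stand beside 15.4% of all genes lower and 20.5% higher. Of the interneuron markers 7 of 16 transcripts were lower and none higher (median -0.25), of the astrocyte markers 5 of 12 were lower (median -0.24), and of the microglia markers 5 of 9 were lower (median -0.40). Summed interneuron markers were at 23827 to 25559 normalized counts in the bigenic and 28538 to 30646 in nontransgenic mice. Astrocyte sums were at 141494 to 167850 against 178150 to 193687, and microglia sums at 5268 to 6873 against 7057 to 8321. The astrocyte sums follow Slc1a2 above all, whose groups overlapped (78858 to 101564 against 101337 to 111078). Slc1a2 was named after its values were seen. Of the oligodendrocyte lineage markers 1 of 14 was higher, and of the endothelial and mural markers 1 of 11 was lower, and the sums of both overlapped. None of the markers tested was at 0 in any mouse, and the part of these differences in the layer results was not tested.

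Tissue next to the cortex was read in the same way, beside the same 15.4% of all genes lower and 20.5% higher. Of 13 choroid plexus markers, 6 were tested and 4 were higher, with sums of 14996 to 30195 normalized counts in the bigenic and 7581 to 8890 in nontransgenic mice. These sums follow Ttr, which was higher (7741 to 18520 against 236 to 1023), and Enpp2 (5716 to 10003 against 6181 to 7237). Enpp2 did not pass the test. F5, Kl and Clic6, among the 4 that were higher, reached 10 RPM in bigenic mice alone, so their calls are not independent of the filter. Hippocampus markers were lower in 3 of 8 and higher in 1, with sums of 4836 to 5093 against 7167 to 8399. The largest falls in mean count were in Nov (1661 against 3661) and Wfs1 (824 against 2203), and Wfs1 is also in the layer 2/3 and 4 list. Trpc6 also fell (-0.76), and Bok was the marker that rose (1.41). Fibcd1 (-0.16), Rspo3 (0.10), Prox1 (0.07) and Zbtb20 (0.05) did not pass the test. The part of hippocampal tissue in these sums was not tested. Of 12 thalamus markers, 4 were tested. Rora was higher (0.69) and 2 were lower, among them Prkcd (-0.43). The sums overlapped, at 1495 to 1851 against 1461 to 1779, and join these opposite changes. Striatum markers were lower in 1 of 9 (Penk, -1.38), with sums of 14266, 6021, 6171 and 5957 against 7983, 10647, 7589 and 7149. The mouse bg254 stood apart in the striatal markers, with 640 normalized counts of the adenosine receptor gene Adora2a against 19 to 218 in the other 7 mice, and 246 of the dopamine receptor gene Drd2 against 6 to 73. Drd2 reached 10 RPM in bg254 alone, so it was kept for testing through this mouse. Adora2a, Drd2, Clic6, Ttr, Enpp2, Bok, Trpc6, Fibcd1, Rspo3, Prox1 and Zbtb20 were named after their values were seen. Mouse bg254 also had the highest Foxp2 of all mice and the highest Bcl11b of the bigenic mice, both of which striatal neurons also express. The highest Bcl11b of all mice was in nt278 (1913), where Adora2a was at 67 and Drd2 at 30. Foxp1, the relative of Foxp2, was lowest of the bigenic mice in bg254 (2951). The part of neighbouring tissue in the layer results was not tested.

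**Figure D4:**
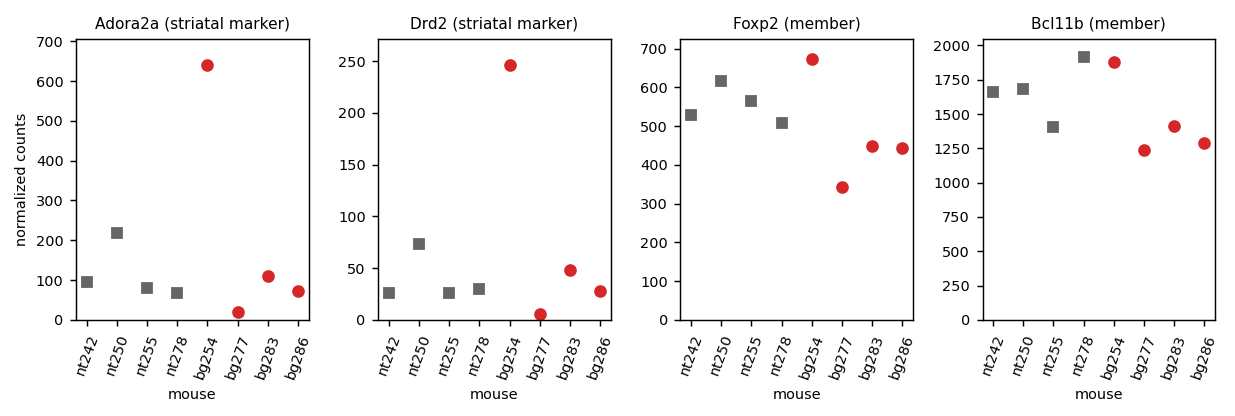
Normalized counts of the striatal markers Adora2a and Drd2 and of the members Foxp2 and Bcl11b in each mouse, nontransgenic (squares) and bigenic (circles), with every axis starting at 0. Mouse bg254 is highest for Adora2a (640), Drd2 (246) and Foxp2 (673). For Bcl11b it is the highest bigenic mouse (1881), below nt278 (1913).

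The members did not vary evenly within a group. Among the bigenic mice, bg277 had the highest value in 15 and the lowest in 11 of the 36 members, and bg254 had the highest in 6 and the lowest in 18. Among the nontransgenic mice, nt278 had the highest value in 16 and the lowest in 11. Without bg277 the count of members past the threshold was 3 higher and 11 lower, with the same genes as with all mice. Over all genes the counts without bg277 were 2683 higher and 2134 lower, against 2167 and 1629 with all mice. Without bg254 the count of members was 4 higher and 10 lower, beside 2059 and 1480 over all genes. Rspo1, Bcl11b and Foxp2 then passed, and Mdga1, Parm1 and Tle4 no longer did. Summed over the members of a layer, normalized counts were at 8474 to 10498 in the bigenic and 13084 to 14696 in nontransgenic mice for layer 2/3, and at 5909 to 6447 against 7101 to 7900 for layer 5. Layer 6 sums reached from 8793 to 10506 against 10504 to 11754, which overlap by 2 normalized counts, and the layer 4 and subplate sums overlapped widely. These sums follow the abundant members, Rasgrf2 in layer 2/3 above all.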

How the data were processed

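Poly(A)+ RNA of right cortex from 4 bigenic and 4 nontransgenic mice was analysed. The authors trimmed adaptors (cutadapt), aligned to mm9 (Bowtie 0.12.7), kept uniquely mapping reads and summed exon counts into genes (bedtools). The deposited signal is a normalized count, a whole number obtained by dividing reads by a factor per mouse and rounding. How the factor was set is not given in the sources used here. The worth of 1 read was estimated per column from values up to 300. The second deposited table holds the authors' means, fold changes, p-values and q-values, which were not used; it gave the symbols of 10601 of 28662 transcripts.

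A gene was kept if it reached 10 RPM, taken over the sum of its column, in any mouse. This left 10588 genes with all 36 members among them, 27 of which passed in every mouse. Bigenic and nontransgenic mice were compared on log2(normalized count + 1) with limma 3.58.1 (R 4.3.3, functions lmFit and eBayes, the latter with a mean-variance trend). P-values were adjusted over all genes by the Benjamini-Hochberg method and read at 0.05. The scripts were first checked on data with known answers. Columns are headed by animal number and tied to a group, not to a replicate number of the labels. Each column is 1 mouse. The p-values test the difference of group means against the spread between mice, moderated over all genes by limma. Tables were made with Python 3.11.15, numpy 2.4.6 and pandas 2.3.3.

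Members and lists were chosen with earlier results of these data known. All members are named; those past the threshold are given with their fold change, up to 3 per layer group with every mouse, and other lists by their 2 genes of smallest adjusted p-value. Wfs1, Calb2 and Drd1a are in more than 1 list. One gene of the other general excitatory list is not reported here. Positions and exon lengths are from the GENCODE annotation of mm9, promoters from RefSeq (GRCm38.p6). Counting by strand is not given in the sources used here. Alternatives were pseudocounts of 10 and 0.1, no filter, a filter in every mouse, equal column totals, quantile normalization, array weights, voom on approximate reads, the authors' gene list, stricter thresholds and leaving out each mouse.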

Additional observations from a re-analysis of the deposited data

Results flagged for a closer look

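In 72 groups of 4 mice (36 members in each of the 2 groups), the highest or the lowest mouse was tested for lying far from the other 3 (the gap to the nearest other mouse as a share of the range of the group, above the 95% critical value of Dixon's test). Chance gives about 1 in 20 such groups, and 5 of 72 were found. In 2 of them the mouse was bg277, with 1088 normalized counts of Sox5 and 1909 of Neurod2, both the highest of the bigenic mice. The other 3 were 834 normalized counts of Cux1 in bg283, the lowest of the bigenic mice, and 1541 of Lhx2 in nt255 and 1215 of Kcnh5 in nt242, each the highest of the nontransgenic mice. Sox5 is the one of these past the threshold, and it passed with and without bg277.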

How the results depend on the processing

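Of 675 alternative values over up to 19 alternatives each, 623 kept their direction and their side of the threshold, 25 no longer passed, 10 newly passed and 17 changed sign, none of them among the 14 members past the threshold. The counts of 3 higher and 11 lower members were the same under both pseudocounts, no filter, equal totals, voom and the authors' gene list. Removing the filter could not add a member, because only transcripts with a symbol could be matched. With array weights 5 members were higher (Rspo1 and Sulf2 added) and 13 lower (Foxp2 and Pou3f3 added), and over all genes 3611 were higher and 2844 lower, against 2167 and 1629. With 10 RPM required in every mouse, where 27 members were left to test, 2 were higher and 7 lower. Over all genes this filter gave 1971 higher and 1417 lower of 8980 tested. With a change of at least 1.5-fold, 2 members were higher and 7 lower. With a limma adjusted p-value below 0.01, 2 were higher and 8 lower. Counts over all genes were not made for these stricter thresholds, so no share of all genes stands beside them. Leaving out each mouse gave 3 to 4 higher and 8 to 11 lower members, and the calls lost were Mdga1, Parm1 and Tle4. Over all genes the same fits gave 1512 to 2683 higher and 1113 to 2134 lower, so the calls over all genes moved as well. The 8 members called under every alternative that tested them were Otof, Rasgrf2, Pou3f2, Etv1, Crym, Sla, Rprm and Neurod1. Of these, Otof, Pou3f2, Sla, Rprm and Neurod1 were not tested with 10 RPM required in every mouse. Signs changed only in members near 0: with quantile normalization Foxp1 was at -0.0142 and Sema3e at -0.0352, and with array weights Ctgf was at 0.0694. Leaving out each mouse moved Cux1 from -0.0347 to 0.0284, Cux2 from -0.0251 to 0.25, Pou3f1 from -0.0276 to 0.25, Pou3f3 from -0.13 to 0.014, Rorb from -0.12 to 0.0402, Foxp1 from -0.0129 to 0.0333, Ntsr1 from -0.19 to 0.0426 and Sema3e from -0.11 to 0.17. The causes were not tested. No paired analysis was possible because the columns carry animal numbers and not the replicate numbers of the labels. The paper describes no pairing of bigenic with nontransgenic mice, so the replicate numbers are not known to mark pairs. The depth of 10.6 M reads on genes in bg277, the lowest of the 8, limits the low members most, such as Sla.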
